A study of Ovis aries with 4 samples.

Results

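N6-methyladenosine (m6A) peaks that lay near the 3' ends of sheep ovary transcripts and crossed an intron are described here. An m6A peak is a stretch of transcript that is enriched after RNA fragments are pulled down with an antibody against m6A. Such a peak was taken when the authors had labelled it 3' UTR or stop codon and when the transcript bases it covered, its deposited width, numbered fewer than the genomic bases between its ends. The difference, called intron bases below, is the intron sequence that lies between the ends of the peak. The rule found 857 of 8034 peaks, 437 of 3656 in aged ovaries and 420 of 4378 in young ovaries. The other 3' UTR and stop codon peaks, 2551 aged and 3458 young, covered a single run of bases and are called one-exon peaks.

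The study compared Cele black sheep ovaries at 5 to 6 years (aged) and 1 to 2 years (young), with no other treatment or genotype named. At each age total RNA gave 1 m6A immunoprecipitate library and 1 untreated input library from a stranded kit, and 1 peak list per age was used here. The sources used here do not give the sequencing depth, the genome build of the coordinates or whether several animals were pooled. Since each age has 1 list, its replicate spread is unknown, no test between ages was run, and intervals (95%, Wilson for shares, Newcombe for differences of shares, order statistics for medians) cover counting error only. Fold enrichment (immunoprecipitate over input) and adjusted p-values are the authors' own. In this bulk tissue, fewer cells of a type and less RNA per cell cannot be told apart, and the input level behind each peak was not used here.

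A methyltransferase complex built around METTL3 and METTL14 adds m6A to messenger RNA in the nucleus, and the mark is known to gather around stop codons and in long last exons. Exon junction complexes, which the spliceosome leaves just upstream of each splice junction, are known to keep the methyltransferase away from nearby sequence. A peak that reaches across an intron therefore includes sequence beside a splice junction. A junction well downstream of a stop codon is also known to mark an mRNA for nonsense-mediated decay, in which UPF3B takes part.

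Intron-crossing 3' end peaks made up 12.0% (10.9 to 13.0) of all aged peaks and 9.59% (8.76 to 10.5) of all young peaks. Among 3' UTR and stop codon peaks their share was 14.6% (13.4 to 15.9) in aged and 10.8% (9.89 to 11.8) in young ovaries, a difference of 3.79 percentage points (2.21 to 5.41). They made up 437 of the 823 aged (53.1%) and 420 of the 739 young peaks (56.8%) that crossed an intron under any label. Aged peaks were wider, and width moved with this share. The median intron-crossing peak covered 301 transcript bases (299 to 347) in aged and 244 (201 to 249) in young ovaries, against 200 and 151 for one-exon peaks of the same ages. Peaks of at least 326 bases were 21.4% of aged and 7.04% of young 3' end peaks.

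Within classes of equal width the ages lay close together, apart from the class of 226 to 325 bases. Of peaks up to 175 bases, 61 of 994 aged (6.14%) and 101 of 1859 young peaks (5.43%) crossed an intron. Of peaks of 176 to 225 bases, 58 of 642 aged (9.03%) and 90 of 988 young peaks (9.11%) did. Of peaks of 226 to 325 bases, 101 of 714 aged (14.1%) and 137 of 758 young peaks (18.1%) did, a difference of -3.93 points (-7.67 to -0.161). Of peaks of at least 326 bases, 217 of 638 aged (34.0%) and 92 of 273 young peaks (33.7%) did. Standardised to the widths of both lists together, the share was 12.2% in aged and 12.8% in young ovaries, so the higher aged share was not seen at equal widths. The part that peak width itself plays was not tested beyond these values.

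**Figure D1:**
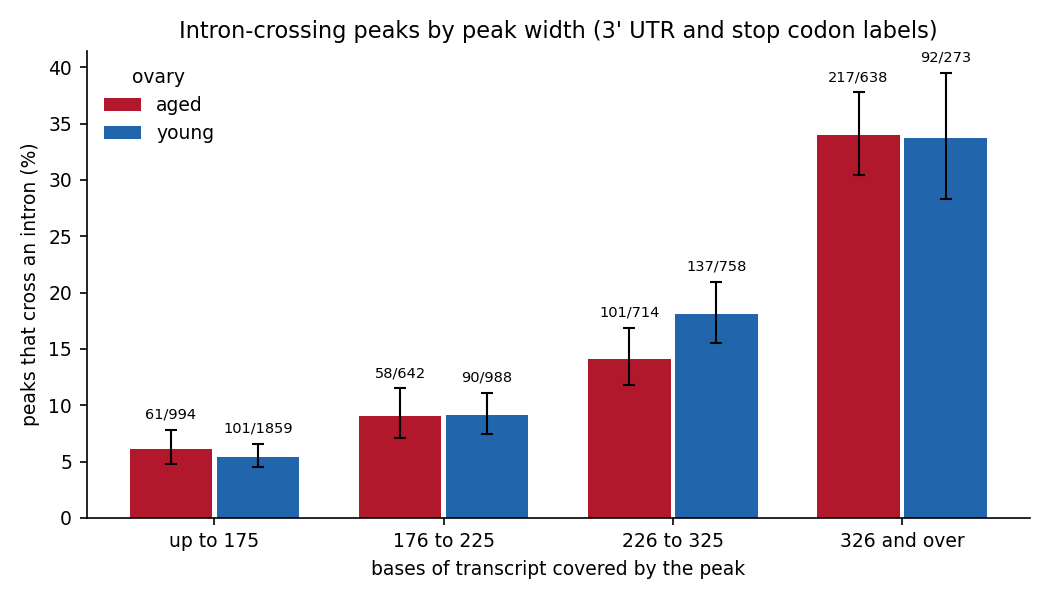
Share of 3' UTR and stop codon peaks that crossed an intron (%), by the transcript bases the peak covered, for aged and young ovaries. Bars start at 0, error bars are Wilson 95% intervals (counting error only) and the counts stand above each bar; in both lists the share is lowest in the narrowest class (6.14% aged, 5.43% young) and highest in the widest (34.0% aged, 33.7% young).

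The intron sequence between the ends of these peaks varied widely in length. The median was 1731 bases (1523 to 2096) in aged and 1317.5 bases (1070 to 1544) in young ovaries, with quartiles of 688 and 4082 in aged and 466 and 3351 in young ovaries. At least 70 and under 500 intron bases were crossed by 70 aged (16.0%) and 103 young peaks (24.5%), and at least 1000 and under 5000 by 200 aged (45.8%) and 164 young peaks (39.0%). The long tail was alike, with at least 10000 bases in 39 aged (8.92%) and 38 young peaks (9.05%). The files give no exon blocks, so a peak may cross 1 intron or several, and which could not be read.

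**Figure D2:**
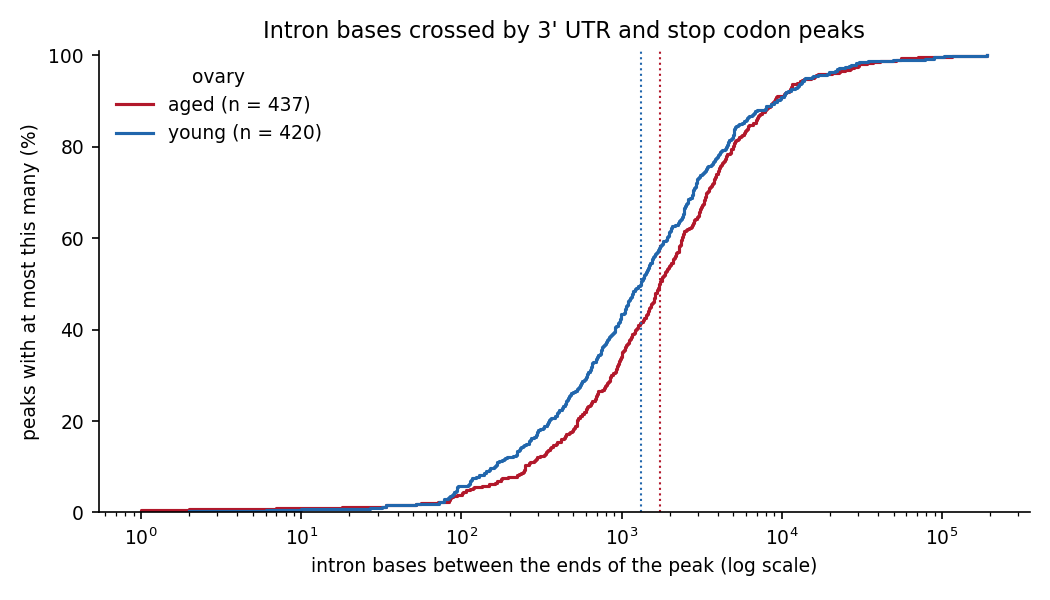
Cumulative share of intron-crossing 3' end peaks (%) by intron bases between the ends of the peak (log axis), for 437 aged and 420 young peaks. Dotted lines mark the medians, 1731 bases in aged and 1317.5 in young ovaries; the curves meet above 10000 bases.

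The longest intron sequence lay in TSHZ2, a zinc finger homeobox gene on chromosome 13. Its aged peak (80887617 to 81080291, plus strand, stop codon label) covered 201 transcript bases and skipped 192474 intron bases, with a fold of 1.78 (adjusted p 3.47e-09). The young TSHZ2 peak (80887567 to 81080191) covered 151 bases and skipped the same 192474 bases, with a fold of 2.31. After TSHZ2 came, LOC genes left out, in aged ovaries PFDN1, a subunit of the prefoldin chaperone (71035 intron bases, fold 2.15), and the centrosomal gene CEP112 (55669 bases, fold 1.87). Neither had a young peak. In young ovaries COMMD1, known for its role in copper homeostasis (103640 bases, fold 1.50), and SDHAF3, an assembly factor of succinate dehydrogenase (88896 bases, fold 3.08), followed, and neither had an aged peak.

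At the other end of the rule, 7 aged and 7 young peaks held fewer than 50 intron bases, and a peak just outside the rule held 0. ZFP28 and POLR1F had 1 intron base in aged ovaries and MRM3 had 2. In young ovaries LOC105605100 had 2 and FAM180B, on chromosome 15 (76317174 to 76317327), had 6. The shortest of these gaps are below the usual length of a vertebrate intron, and what they stand for was not tested. Leaving out gaps under 70 bases kept the share of all peaks at 11.7% aged and 9.44% young. UBE2D4, an E2 ubiquitin-conjugating enzyme gene, and JCAD, a gene of endothelial junctions, each had a gap of 34 bases in both lists.

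The labels of intron-crossing peaks differed by strand, more so in the aged list. A stop codon label was carried by 134 of 437 aged (30.7%, 26.5 to 35.1) and 234 of 420 young peaks (55.7%, 50.9 to 60.4). On the plus strand these were 101 of 234 aged (43.2%) and 146 of 240 young peaks (60.8%). On the minus strand they were 33 of 203 aged (16.3%) and 88 of 180 young peaks (48.9%). Aged one-exon peaks carried the stop codon label in 31.0% of cases on the plus and 1.07% on the minus strand. In young one-exon peaks the strands were close, at 46.8% and 43.8%. Compared with one-exon peaks the stop codon label was the more frequent at both ages, by 13.9 points in aged (9.52 to 18.6; one-exon share 16.7%) and by 10.3 points in young ovaries (5.19 to 15.2; one-exon share 45.5%).

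The aged minus strand stood apart in a second way. Only 46 aged minus-strand peaks had a stop codon label at all, and 33 of them (71.7%, 57.5 to 82.7) crossed an intron, against 88 of 776 (11.3%) in young ovaries, a difference of 60.4 points (45.9 to 71.5). ANP32E, whose product removes the histone variant H2A.Z from chromatin, was among the 33, with an aged fold of 3.00. Plus-strand stop codon peaks crossed an intron in 101 of 515 aged (19.6%) and 146 of 1030 young cases (14.2%). For the 3' UTR label the shares were 12.6% aged and 8.57% young on the plus strand, and 12.4% aged and 9.44% young on the minus strand.

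**Figure D3:**
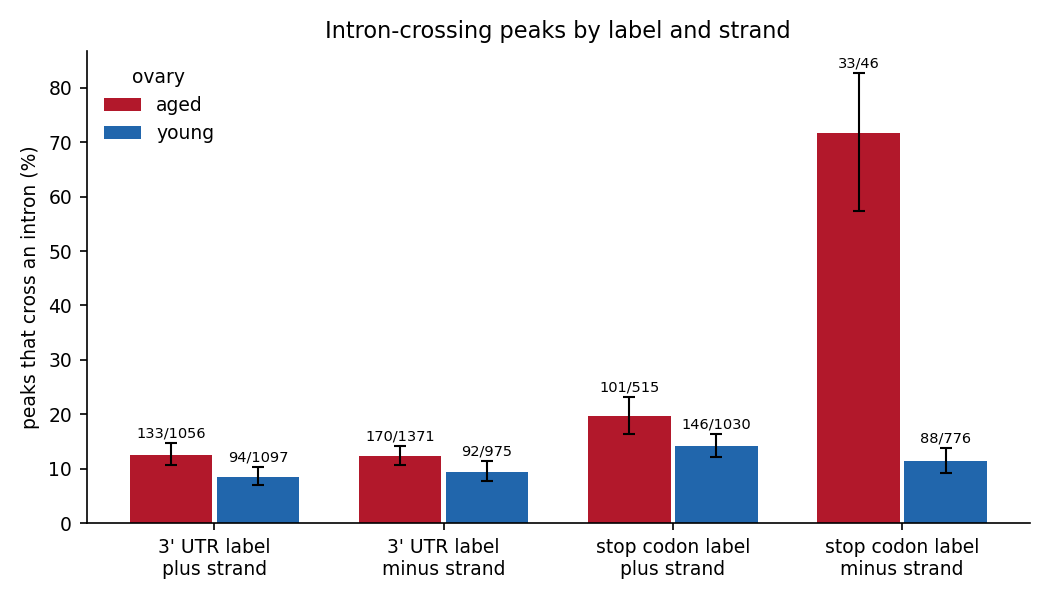
Share of peaks that crossed an intron (%), by label and strand, for aged and young ovaries. Error bars are Wilson 95% intervals (counting error only) and counts stand above the bars; the aged minus-strand stop codon bar (33 of 46) is the tallest, and the other 7 bars lie below 20%.

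Pooled over labels and strands, intron-crossing peaks lay farther from the gene end than one-exon peaks. Gene ends were read from a RefSeq gene table, which matched 435 aged and 418 young intron-crossing peaks. Distances to the gene end are in genomic bases, so any intron downstream of a peak is counted. The median distance from the 3' boundary of the peak to the gene end was 792 bases in aged and 300 bases in young ovaries, against 396 and 100 bases for one-exon peaks of the same ages. The order was the opposite for aged minus-strand stop codon peaks (medians of 2542 bases for 33 intron-crossing and 3058 for 13 one-exon peaks) and for young plus-strand 3' UTR peaks (649 for 94 intron-crossing and 1042 for one-exon peaks). For young minus-strand stop codon peaks both medians were 0 (88 intron-crossing and 688 one-exon peaks). More than 1000 bases remained for 45.3% of aged and 39.2% of young intron-crossing peaks, which exceeded the one-exon shares by 10.6 points in aged (5.63 to 15.7) and 7.83 points in young ovaries (3.00 to 12.8). Exactly at the last base of the gene ended 36 of 435 aged (8.28%) and 106 of 418 young intron-crossing peaks (25.4%). Those shares were below the one-exon shares by 3.29 points in aged (-5.88 to -0.0975) and 8.60 points in young ovaries (-12.9 to -3.95). All 36 aged and all 106 young peaks that ended there carried the stop codon label. So did all 294 aged and 1168 of 1169 young one-exon peaks that ended there. Within that label the gap was wider. There 26.9% of aged and 45.3% of young intron-crossing peaks ended at the last base, against 69.0% and 74.6% of one-exon peaks.

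In the aged list none of these peaks on the minus strand reached the last base. That count of 0 of 201 compares with 36 of 234 on the aged plus strand (15.4%). Aged one-exon peaks shared this, with 0 of 1209 on the minus and 294 of 1332 (22.1%) on the plus strand. A distance of 45 to 50 bases to the gene end was found for 43 of 201 aged (21.4%) and 5 of 178 young minus-strand intron-crossing peaks (2.81%). On the plus strand it was found for 13 of 234 aged (5.56%) and 13 of 240 young peaks (5.42%). BCL2A1, AIF1, KRT18, NPM2 and NLRP14, all on the minus strand, were among the aged peaks with that distance. The young peaks of AIF1, KRT18 and NPM2 reached that last base and were labelled stop codon, whereas the aged ones were labelled 3' UTR.

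The median enrichment of intron-crossing peaks was close to that of one-exon peaks. The median fold was 1.86 (1.82 to 1.90) in aged and 2.00 (2.00 to 2.08) in young ovaries, against 1.90 and 2.04 for one-exon peaks of the same ages. A fold of at least 2.00, the median over both lists, was reached by 161 of 437 aged intron-crossing peaks (36.8%, 32.5 to 41.5). Aged one-exon peaks reached it in 43.7% of cases (41.8 to 45.6) and all aged peaks in 42.7%. It was reached by 235 of 420 young intron-crossing peaks (56.0%), beside 57.7% of young one-exon peaks and 58.3% of all young peaks. An adjusted p of at most 0.05 was reached by 424 of 437 aged peaks (97.0%) beside 96.7% of all aged peaks, and by 420 of 420 young peaks beside 99.8% of all young peaks. Peaks with at least 10000 intron bases had median folds of 1.81 in aged (n = 39) and 2.025 in young ovaries (n = 38). Those with fewer than 1000 had 1.81 in aged (n = 149) and 1.94 in young ovaries (n = 182).

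With LOC genes left out, the highest aged folds lay in genes of varied roles. C15H11orf49, which encodes a regulator of tubulin polyglutamylation, led with a fold of 5.33 (adjusted p 0.0158) on chromosome 15 (75989613 to 75991094, 1136 intron bases). The young list had a one-exon peak of fold 1.82 there. BCL2A1, an anti-apoptotic gene of the BCL2 family on chromosome 18 (23787261 to 23792994), had an aged fold of 5.00 with 5352 intron bases and a young one-exon peak of 2.43. PTPN11, the gene of the SHP2 phosphatase on chromosome 17 (61902700 to 61903876), had an aged fold of 4.60 with 926 intron bases and a young one-exon peak of 1.80. In these 3 genes the aged peak thus crossed an intron and the young peak that overlapped its genomic span did not. Without exon blocks, whether both peaks cover the same transcript bases could not be read.

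Other leading aged peaks had a young intron-crossing partner. DNAJB11, an endoplasmic reticulum co-chaperone gene on chromosome 1 (201409258 to 201410191), had a fold of 4.29 with 688 intron bases in aged and 1.73 with 463 in young ovaries. POLR3C, a subunit gene of RNA polymerase III, had 3.50 in aged and 2.54 in young ovaries with 1516 intron bases in both. TMCO4 had 3.50 in aged and 2.25 in young ovaries, with 4567 intron bases in both. ZCRB1, a gene of the minor spliceosome, had 3.50 in aged and 2.00 in young ovaries, with 3788 and 3436 intron bases. RBFOX3, a splicing regulator gene known from neurons (4.00, 1046 intron bases), and SYAP1 (3.41, 1170 intron bases) had no young peak. These genes were chosen by their aged fold, so the direction of the differences says nothing further.

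With LOC genes left out, the highest young folds were led by STEEP1, whose product helps STING leave the endoplasmic reticulum. Its peak on chromosome X (114941363 to 114943327) had a fold of 6.33 (adjusted p 9.55e-09), a width of 150 bases and 1815 intron bases, and the aged list had no STEEP1 peak. PIN4, a parvulin-type prolyl isomerase gene (5.00, 608 intron bases), and PLGRKT, a plasminogen receptor gene (4.67, 4648 intron bases), had no aged peak either. CHPF2, which acts in chondroitin synthesis, had a young fold of 4.33, and its 2 aged peaks lay elsewhere in the gene. GGTA1, which makes the alpha-gal epitope, had a young fold of 4.00 and an aged peak that did not overlap it.

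Other leading young genes, chosen by their young fold, had an aged partner. USP47, a deubiquitinase gene on chromosome 15, had a fold of 2.20 in aged (40503399 to 40504762) and 4.29 in young ovaries (40503350 to 40504762), with 817 intron bases in both. MRPS21, a mitochondrial ribosomal protein gene on chromosome 1, had peaks with identical boundaries (100374153 to 100385055, 10509 intron bases) and folds of 1.76 in aged and 4.25 in young ovaries. UBE2D4 had 2.92 in aged and 4.09 in young ovaries. POLR1F, a subunit gene of RNA polymerase I on chromosome 4, was split differently in the lists. Its young peak (29360822 to 29362990, 1424 intron bases) had a fold of 3.80. The aged list held a peak of fold 2.09 (29360872 to 29361170) that crossed 1 intron base and a second, labelled exon, of fold 3.09 with 1423 intron bases.

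Overlap with the other age was somewhat more frequent for intron-crossing than for one-exon peaks. By at least 1 base of the genomic span on the same strand, 216 of 437 aged peaks (49.4%, 44.8 to 54.1) overlapped a young peak and 155 of 420 young peaks (36.9%, 32.4 to 41.6) overlapped an aged one. The excess over one-exon peaks was 6.58 points in aged (1.54 to 11.6) and 3.30 points in young ovaries (-1.45 to 8.27). Spans that include introns are longer, with medians of 2137 bases in aged and 1516 in young ovaries, against 200 and 151 for one-exon peaks. With at least 50% of both spans the shares of intron-crossing peaks were 22.2% aged and 21.9% young. The one-exon shares by that rule were not computed here, so the excess was not compared at equal span. An overlapping partner crossed an intron too, with a 3' UTR or stop codon label, for 110 aged (25.2%) and 110 young peaks (26.2%). It was a one-exon peak alone for 83 aged (19.0%) and 24 young peaks (5.71%). No partner was found for 221 aged (50.6%) and 265 young peaks (63.1%).

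The 110 pairs of intron-crossing peaks all joined peaks of the same gene, and 65 pairs (59.1%, 49.7 to 67.8) had exactly equal intron bases. The 3' boundary was the same in 43 pairs, the 5' boundary in 27 and both in 13. The aged peak was wider in 48 pairs and equal in 21. The aged fold was the higher one in 44 pairs (40.0%), with medians of 1.83 in aged and 1.94 in young peaks and a median difference of -0.0800 (-0.140 to 0). Among 1073 one-exon pairs the aged fold was higher in 44.7%, with a median difference of -0.0600, close to that of the intron-crossing pairs.

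**Figure D4:**
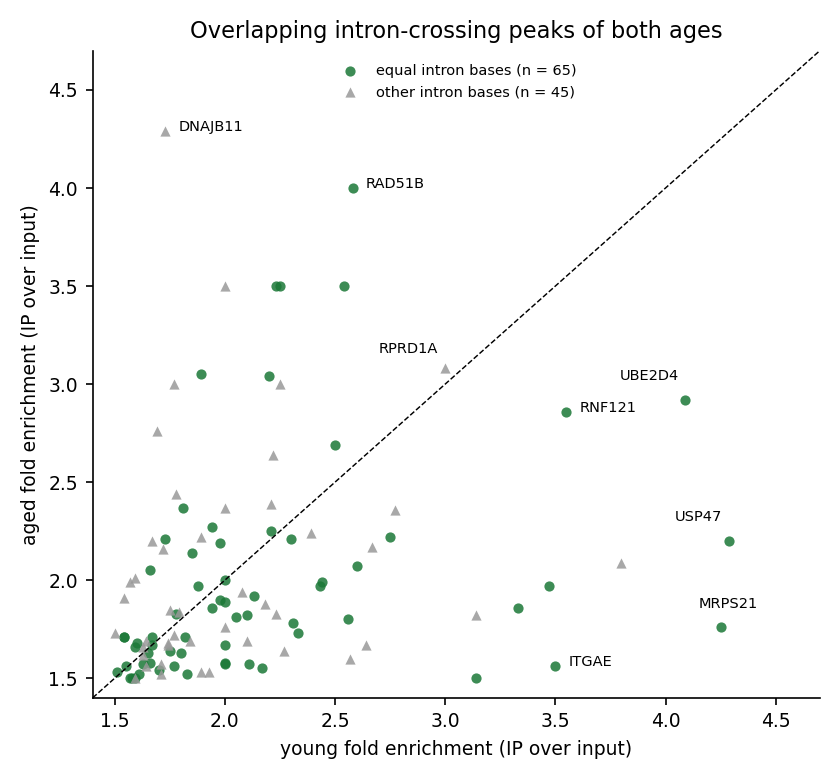
Fold enrichment (immunoprecipitate over input) of 110 pairs of overlapping intron-crossing 3' end peaks, aged on the vertical and young on the horizontal axis, with the diagonal of equal folds dashed. Green circles are the 65 pairs with equal intron bases and grey triangles the other 45; 44 pairs lie above the diagonal, DNAJB11 (4.29 aged, 1.73 young) and RAD51B far above it, MRPS21, USP47 and ITGAE far below.

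Ranked by the lower of both folds, LOC genes left out, RPRD1A, whose product binds the tail of RNA polymerase II, led with 3.08 in aged and 3.00 in young ovaries on chromosome 23 (21452923 to 21454647 in aged; 21453131 to 21454647 in young). UBE2D4 came next, followed by RNF121, a membrane-bound ubiquitin ligase gene, with identical boundaries (chromosome 15, 50366071 to 50366885) and folds of 2.86 in aged and 3.55 in young ovaries. RAD51B, a gene of homologous recombination, also had identical boundaries (chromosome 7, 78370970 to 78376080, 4960 intron bases) with folds of 4.00 in aged and 2.58 in young ovaries. POLR3C and SRP72, a gene of the signal recognition particle (2.36 aged, 2.77 young), came after it. ANP32E (3.00 aged, 2.25 young) and TMCO4 completed the 8. Folds near 3 in both lists, as in RPRD1A, were the exception, since 1.83 and 1.94 were the aged and young medians.

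The 13 pairs with identical boundaries are named after their values were seen. Beside RNF121, RAD51B and MRPS21 they lay in GUF1, MLF1, CST6, HACD2, FDX1, IFTAP, CMC1, NDUFB10, CEBPZ and FST. FDX1 encodes the ferredoxin that passes electrons to steroid-making cytochromes P450, and its peak (chromosome 15, 20156675 to 20164758, 7886 intron bases) had folds of 1.63 in aged and 1.80 in young ovaries. FST encodes follistatin, which binds activin, and its peak (chromosome 16, 25758422 to 25758937, 166 intron bases) had folds of 1.50 in aged (adjusted p 0.0724) and 1.59 in young ovaries (adjusted p 1e-11). NDUFB10, a complex I subunit gene, had 1.56 in aged (adjusted p 0.144) and 1.55 in young ovaries (adjusted p 2.0e-67). In FST and NDUFB10 the folds were thus nearly equal while the aged adjusted p missed 0.05. CEBPZ (1.52 aged, 1.83 young) lies opposite CEBPZOS (1.97 aged, 2.43 young), and the spans of their intron-crossing peaks overlap on opposite strands.

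Other overlapping pairs joined an intron-crossing and a one-exon peak. In 87 pairs the aged peak crossed the intron and the young peak did not, with the aged peak the wider in 73 (83.9%) and median widths of 349 and 192 bases. The 3' boundary was the same in 22 of the 87 and the 5' boundary in 1. In 26 pairs the young peak crossed the intron and the aged one did not, with the young peak the wider in 19. UPF3B was one of the 87, with an aged fold of 2.70 across 3235 intron bases and an overlapping young one-exon peak of 3.75. SMAD2, a signal transducer of TGF-beta and activin, was another, with 1.55 across 3078 intron bases in aged and a one-exon peak of 3.50 in young ovaries.

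An intron-crossing 3' end peak was found in 738 genes, in the aged list alone for 322 (43.6%), in the young list alone for 303 (41.1%) and in both for 113 (15.3%). Of the 322 genes, 148 (46.0%) had a young peak of another kind, and of the 303 genes, 70 (23.1%) had an aged one. Presence in 1 list describes that list and not gain or loss of methylation. Nearly all genes held a single such peak, 433 of 435 aged and 413 of 416 young genes. UBAP2L, a gene of stress granule assembly on chromosome 1, was the gene with 3, all in young ovaries, with folds of 2.29 (104552087 to 104555263), 3.25 (104556947 to 104557945) and 1.97 (104558295 to 104558521). The aged list had no UBAP2L peak.

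Among all genes with a 3' UTR or stop codon peak, 16.4% of aged and 11.9% of young genes had one that crossed an intron, and gene lists were read against these shares. Lists were matched by name or by deposited symbol. Genes of oxidative phosphorylation had 5 of 9 genes in aged and 15 of 22 (68.2%) in young ovaries, the highest young share among the lists with at least 7 such genes at both ages. In aged ovaries the core spliceosome, given below, had the same 5 of 9. NDUFA5, a complex I subunit gene, had an aged fold of 2.82 across 11255 intron bases, and NDUFAF5, a complex I assembly factor gene, an aged fold of 2.10. ATP5PO, of the ATP synthase stalk (2.70), and NDUFV2, of complex I (2.00), led in young ovaries, and ATP5MF was found in both (1.69 aged, 1.84 young). Of the 15 young genes 3 were LOC genes matched by the symbols UQCRC2, COX7C and UQCRB, which may be copies of the named genes and are uncertain. The peak reached the final base of its gene in 3 of 5 aged and 8 of 15 young cases, against 8.28% and 25.4% of all aged and young intron-crossing peaks.

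Cytosolic ribosomal protein genes had 1 of 11 genes in aged and 11 of 33 (33.3%) in young ovaries. RPS27L (2.48) and RPL27 (1.95) led in young ovaries. The aged gene, LOC101115926 with the symbol RPL17, had 1.97 in aged and 1.88 in young ovaries across 1143 intron bases in both. Of the 11 young peaks 8 reached the final base of their gene, and 1 reached a fold of 2.00. Ribosomal protein genes have many near-identical copies, so these assignments are uncertain. Translation factor genes had 2 of 7 in aged and 6 of 18 (33.3%) in young ovaries, led by EIF4E2, a cap-binding protein gene (1.97 aged, 3.47 young, 4542 intron bases in both). EIF2B5 (1.61) followed in aged ovaries and the translational repressor gene EIF4EBP1 (2.25) in young ovaries.

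Proteasome and protein folding genes had 10 of 29 (34.5%) in aged and 15 of 51 (29.4%) in young ovaries, above the share of all genes at both ages. DNAJB11 and HSPA4, an HSP110 family chaperone gene (2.21), led in aged ovaries. PDIA3, a protein disulfide isomerase gene (3.00), and AHSA2P (2.71) led in young ovaries. Ubiquitin genes lay near the share of all genes, with 12 of 75 (16.0%) in aged and 10 of 81 (12.3%) in young ovaries. The E2 gene UBE2D3 had 3.04 in aged and 2.20 in young ovaries, with 1926 intron bases in both. UBE2D4, USP47 and RNF121 of this list were among the leading peaks above.

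**Figure D5:**
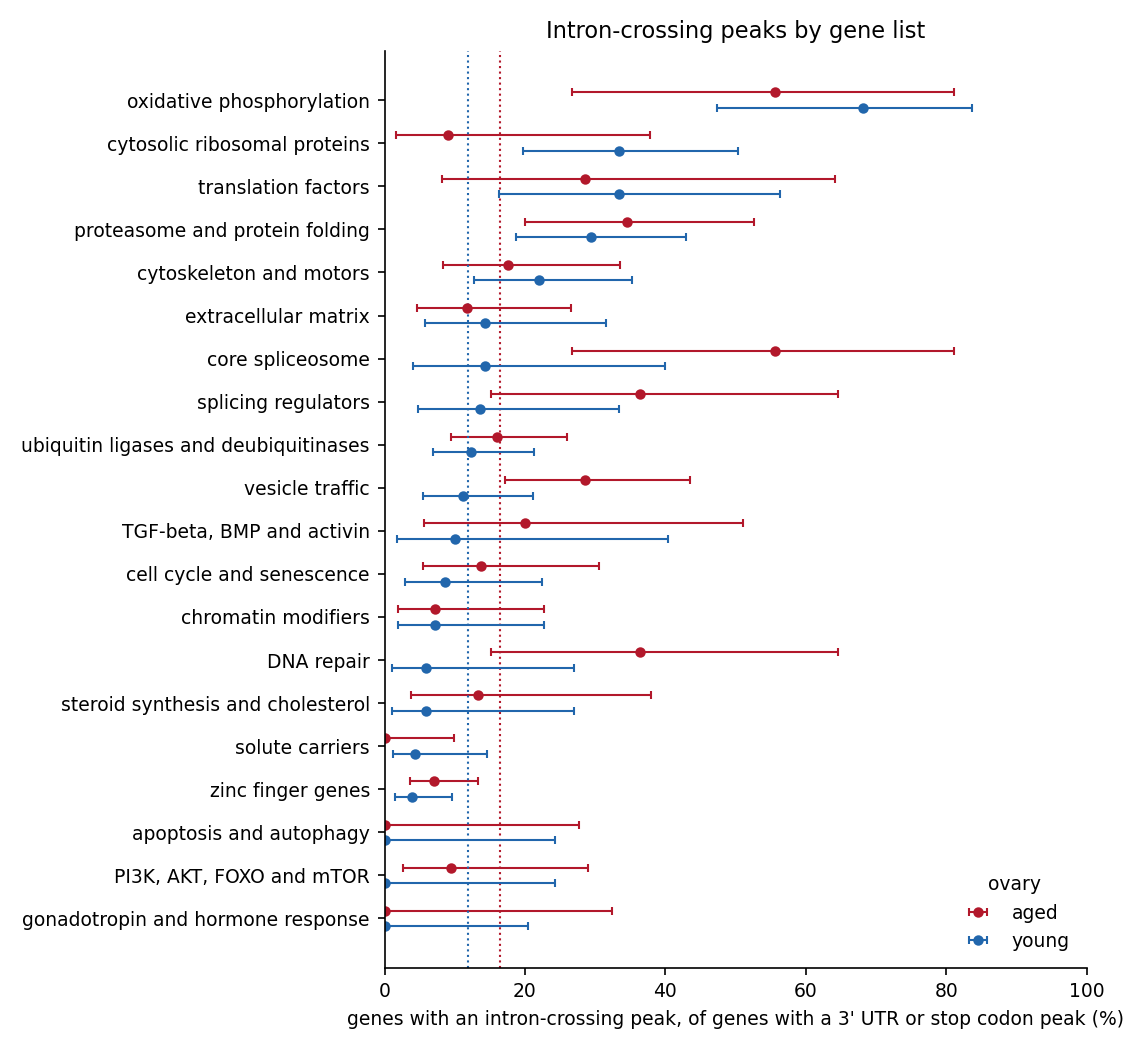
Share of genes with a 3' UTR or stop codon peak whose peak crossed an intron (%), by gene list, for lists with at least 7 such genes at both ages. Points are shares, bars Wilson 95% intervals (counting error only) and dotted lines the shares over all such genes, 16.4% in aged and 11.9% in young ovaries; oxidative phosphorylation lies right of both lines, zinc finger genes and solute carriers left of them or at 0.

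Splicing and vesicle lists had higher shares in aged than in young ovaries, as did all genes (16.4% aged, 11.9% young). Core spliceosome genes had 5 of 9 in aged (55.6%, 26.7 to 81.1) and 2 of 14 in young ovaries (14.3%, 4.01 to 39.9). Among them were the helicase gene DDX46 (1.93) in aged and the Sm protein genes SNRPF (3.75) and SNRPD1 (1.68) in young ovaries. Splicing regulators had 4 of 11 in aged (36.4%, 15.2 to 64.6) and 3 of 22 in young ovaries (13.6%, 4.75 to 33.3). HNRNPH3 (1.86) and HNRNPA3 (1.82) led in aged ovaries. In young ovaries HNRNPU had 3.60, and HNRNPA3 had 2 peaks of 3.14 and 2.00. Vesicle traffic genes had 12 of 42 (28.6%) in aged and 7 of 63 (11.1%) in young ovaries. The exocyst gene EXOC7 had 2.22 in aged and 1.89 in young ovaries, EXOC1 and VPS39 had 2.00 each in aged ovaries, and SNX22 had 3.00 in young ovaries. Whether these shares differ between ages could not be tested with 1 list each.

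Cytoskeletal genes had 6 of 34 (17.6%) in aged and 11 of 50 (22.0%) in young ovaries. SEPTIN6 (2.37) and KRT18 (2.05) led in aged ovaries, and ARPC3, of the ARP2/3 complex (3.67), and ACTG1, a cytoplasmic actin gene (2.56), in young ovaries. Actin genes have near-identical copies, so the ACTG1 assignment is uncertain. Extracellular matrix and adhesion genes had 4 of 34 in aged and 4 of 28 in young ovaries. The matricellular gene THBS1 had an aged fold of 2.71 and the integrin gene ITGAE 1.56 in aged and 3.50 in young ovaries, with 840 intron bases in both. The fourth gene of both lists, LOC101108702 (2.27 aged, 1.94 young), was caught through the symbol ITGB3BP, a centromere protein and no matrix component.

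Zinc finger, chromatin and transporter genes had shares below those of all genes, within counting error for chromatin modifiers and young solute carriers. Zinc finger genes had 8 of 113 (7.08%) in aged and 4 of 102 (3.92%) in young ovaries, led by LOC100527962 (3.09) in aged ovaries, LOC101109901 (2.57) in young ovaries, and ZNF75A in both (2.25 aged, 2.21 young). Chromatin modifiers had 2 of 28 (7.14%, 1.98 to 22.6) at each age. These were the remodelling ATPase gene SMARCA4 (1.69 aged, 2.10 young), BRD2 in aged (1.68) and SMARCE1 in young ovaries (1.90). Solute carriers had 0 of 35 in aged ovaries, where 3 genes would be 8.57%. In young ovaries they had 2 of 46 (4.35%, 1.20 to 14.5), SLC6A20 (3.33) and SLC25A4 (1.61). Gonadotropin and hormone response genes had 0 of 8 aged and 0 of 15 young genes, and apoptosis and autophagy genes 0 of 10 aged and 0 of 12 young genes (BCL2A1 was not on that list). For the hormone response and the apoptosis and autophagy genes the limit of 3 genes lies above the share of all genes, and for the aged solute carriers it lies below it.

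Cell cycle genes had 4 of 29 (13.8%) in aged and 3 of 35 (8.57%) in young ovaries. MCM6, of the replicative helicase, had an aged fold of 2.38 (adjusted p 0.0275) with 3051 intron bases and an overlapping young one-exon peak of 2.75. CDK7 (2.18) was aged, and CENPT (2.33) and CDKN2AIPNL (2.00) were young. DNA repair genes had 4 of 11 in aged and 1 of 17 in young ovaries, with NBN (1.81) and REV3L (1.71) leading in aged and RAD54L (1.87) in young ovaries. None of these 5 list peaks reached a fold of 2.00. RAD51B, a repair gene described above with 4.00 in aged and 2.58 in young ovaries, was not on the list.

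Growth and steroid pathways of the ovary had counts too small to set apart from the shares of all genes (16.4% aged, 11.9% young). PI3K, AKT, FOXO and mTOR genes had 2 of 21 (9.52%) in aged and 0 of 12 in young ovaries. IGF1, insulin-like growth factor 1, had an aged intron-crossing peak of 2.25 (chromosome 3, 171786990 to 171788809, 1470 intron bases) with no overlapping young peak. FST and SMAD2, given above, were the TGF-beta, BMP and activin genes. Steroid synthesis held FDX1 in both lists and FDPS, of isoprenoid synthesis, in aged ovaries (1.78). These were 2 of 15 aged (13.3%) and 1 of 17 young genes (5.88%).

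Of the m6A machinery, FMR1, a reader gene, had the single intron-crossing peak (young 2.33, chromosome X, 87701741 to 87704171, 2280 intron bases), out of 3 aged and 9 young genes with a 3' end peak. Exon junction complex and decay genes held UPF3B and ACIN1 in aged ovaries, out of 4 genes, and none of 6 in young ovaries. ACIN1, which binds the junction complex, had an aged fold of 2.00 with 791 intron bases, and an overlapping young peak of 2.29 crossed 791 bases too but was labelled exon. The counts are too small to set against the share of all genes.

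Markers of oocytes, macrophages, surface epithelium and theca or luteal cells were among the genes with an intron-crossing 3' end peak. Oocyte genes, 2 of 4 in aged and 2 of 3 in young ovaries, were NLRP14 in aged (2.75, 706 intron bases), NPM2 in both (1.58 aged, 2.00 young, 1413 intron bases in both) and the transcription factor gene FIGLA in young ovaries (2.55, 8540 intron bases). Macrophage genes, 2 of 2 in aged and 4 of 6 in young ovaries, were CD86 (2.39 aged, 2.21 young), AIF1 (1.71 aged, 1.54 young) and MSR1 (2.00, young alone), with LOC105612575, whose symbol is CD163, in young ovaries (1.87). CD86, a co-stimulatory gene, crossed 2146 intron bases in aged and 9867 in young ovaries with the same 3' boundary. KRT18 stood for the surface epithelium, 1 of 1 gene in aged and 1 of 3 in young ovaries (2.05 aged, 1.66 young, 293 intron bases in both) and FDX1 for theca and luteal cells, 1 of 2 genes in aged and 1 of 4 in young ovaries. Granulosa, stroma, smooth muscle and endothelium markers had no intron-crossing 3' end peak, with 2 to 4 genes of each bearing a 3' end peak at each age. Of T cell markers 1 gene had a 3' end peak, in the aged list and within 1 exon, and erythroid markers had none.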

How the data were processed

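Ovaries of aged and young sheep were profiled by m6A immunoprecipitation, with groups taken from the labels for age and antibody. The submitters' processing notes name ChIPseeker and DESeq2 without a role or version; the sources used here give no aligner, peak caller or genome build. Per the file headers, the authors give each peak a p-value with its adjusted form and a fold enrichment, which is a linear ratio. The log10 p columns, as deposited, served as a score. The lowest deposited fold was 1.5. Sequencing depth was not given.

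Coordinates are printed counting from 1. Intron bases were the end minus the 0-based start minus the deposited width. Peaks were matched by at least 1 base of span on the same strand. Gene ends came from a RefSeq gene table of assembly ARS-UI_Ramb_v3.0, whose coordinates are not printed. No genome sequence or exon table was used here, so no sequences are shown. The overlap code was tested on simulated data.

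The peaks, the 32 gene lists and the comparisons were chosen with earlier results of these data known. Genes named were the 10 highest folds and 3 longest gaps per list, the 8 pairs with the highest lower fold (LOC genes left out of these), genes with 3 such peaks, every m6A, junction complex and cell marker gene, the 2 highest folds of each other list and age, and the shortest gaps. Some genes that this rule selects are not reported here. Where several peaks tied or a gene showed a pairing, it was added after its values were seen. Alternatives were a fold of at least 2.00, an adjusted p of at most 0.01, the plus strand, equal list lengths, gaps of at least 70 bases, other overlap rules and leaving out LOC genes. Standardising by width and overlap by an identical start or end were chosen after seeing the data. The software was matplotlib 3.10.9, scipy 1.17.1, numpy 2.4.6 and pandas 2.3.3 under Python 3.11.15.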

Additional observations from a re-analysis of the deposited data

How the results depend on the processing

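Of 54 values recomputed under other settings, 36 moved by less than their interval and 18 moved by more. Only the differences of median fold could change sign, since the other values are percentages. None of them did, but the young one became 0 on the plus strand and with equal list lengths. With a fold of at least 2.00, these peaks were 10.3% of aged peaks (12.0% before), 34.8% of the aged ones overlapped a young peak and 13.6% of the young ones an aged peak, 50.2% of the young ones had a stop codon label, the young median fold was -0.10 from that of one-exon peaks (-0.04 before), and 36.8% of genes were in the aged list only. With equal list lengths 43.7% of aged peaks overlapped and 48.5% of genes were in the aged list only. On the plus strand the stop codon shares were 43.2% aged and 60.8% young. Overlap was 22.2% aged and 21.9% young by 50% of both spans, 25.2% aged and 26.2% young with intron-crossing peaks alone, and 19.0% aged and 16.0% young by an identical start or end. Standardised by width, the shares of 3' end peaks were 12.2% aged and 12.8% young (14.6% and 10.8% before), so the order of the ages reversed. The cause of these shifts was not tested, except that stricter settings leave fewer peaks to overlap. Matching of single introns, the place of the intron within a peak and overlap of exon blocks were not run because the files give no blocks. No paired analysis was possible because the ages share no replicate number and have 1 list each. Depth was not given, so folds of the aged and young lists may not be on one footing.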

Other observations

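Intron crossing was counted more often among peaks labelled exon or start codon than at 3' ends. Peaks labelled exon crossed an intron in 340 of 559 aged (60.8%) and 283 of 407 young cases (69.5%). Start codon peaks did so in 12 of 18 aged (66.7%) and 18 of 25 young cases (72.0%). Peaks labelled 5' UTR did so in 34 of 91 aged (37.4%) and 18 of 68 young cases (26.5%).

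Widths fell on a grid. The width lay within 3 bases of a multiple of 50 for 75.1% of aged and 69.8% of young intron-crossing 3' end peaks, against 91.4% of aged and 91.6% of young one-exon peaks. The aged minus-strand distance of 45 to 50 bases to the gene end, given above for intron-crossing peaks, was also found for 283 of 1209 aged (23.4%) and 113 of 1562 young one-exon minus-strand peaks (7.23%). The origin of that distance was not tested.

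Genes with 2 intron-crossing 3' end peaks in 1 list were LOC105609854 and SMIM11 in aged ovaries and AIG1 and HNRNPA3 in young ovaries. SMIM11 had folds of 1.87 across 4245 and 2.33 across 2435 intron bases. AIG1 had folds of 2.05 across 78260 and 3.10 across 5054 intron bases.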
